A study of Mus musculus with 8 samples.

Results

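The stefin A cluster is a tandem family of small genes on mouse chromosome 16. Its members Csta1, Stfa2l1 and Stfa1 were followed in a 1500-kb window, chr16:35500001-37000000 (mm10), which holds 15 of the 23972 bins of 100 kb scored in all 8 Hi-C libraries. The window and the members were selected on the compartment scores of the Setdb1 libraries, because 2 adjacent bins in it, chr16:36100001-36300000, rose with loss of SETDB1 in earlier results of these same data. What follows for SETDB1 loss is therefore a description of values with no test, whereas the Suv39h libraries had no part in the choice and their differences were tested.

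Hi-C counts how often pairs of genomic loci are ligated to each other in fixed nuclei, and was done here in mouse embryonic stem cells (mESCs). The value used is the compartment score of each bin, a number with no physical unit in which positive bins belong to the A compartment (mostly active chromatin) and negative bins to the B compartment (mostly inactive chromatin). All cells were grown on gelatin with LIF, knockout serum replacement and fetal calf serum. The Setdb1 libraries came from 1 conditional knockout line in which 4-hydroxytamoxifen (4-OHT) removes Setdb1. Setdb1 WT had no treatment, Setdb1 WT + UNC had 2 µM UNC0642 for 3 days, Setdb1 KO had 800 nM 4-OHT for 5 days, and Setdb1 KO + UNC had 800 nM 4-OHT for 2 days and then 2 µM UNC0642 for 3 days. UNC0642 inhibits the H3K9 methyltransferases G9a and GLP. Both Setdb1 KO libraries had 4-OHT and no other library did, so effects of 4-OHT and of SETDB1 loss cannot be told apart. Setdb1 KO and Setdb1 KO + UNC also differ in days of 4-OHT, so UNC0642 is not the sole difference in that pair. Suv39h WT and Suv39h DKO, which lacks SUV39H1 and SUV39H2, were each sequenced without UNC0642 and with 2 µM for 3 days (Suv39h WT + UNC, Suv39h DKO + UNC). Suv39h WT and Suv39h DKO were 1 clone each, which means that effects of clone and of genotype cannot be told apart, and all differences between the Setdb1 and Suv39h lines are also differences between cell lines. Each group had 1 file of scores, called a library below. The study repeated its Hi-C, and whether a file holds 1 repeat or a pool is not given in the sources used here.

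Stefin A proteins are cytosolic members of the cystatin superfamily that block papain-like cysteine proteases such as the cathepsins. Rodents carry several copies in tandem, and the copies are known mainly from skin and from myeloid blood cells. SETDB1 is an H3K9 methyltransferase best known for silencing endogenous retroviruses, SUV39H1 and SUV39H2 methylate H3K9 at pericentromeric repeats, and G9a with GLP makes most H3K9me2 in euchromatin.

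RefSeq places 31 protein-coding genes in the window, of which 11 are stefin A genes within 335 kb, chr16:36119946-36455392. They occupy 4 consecutive bins. The first holds Csta1 (chr16:36119946-36131189, minus strand), Stfa2l1 (chr16:36156811-36161948, plus strand) and Cstdc4, and the second Csta3, Csta2 and Stfa1 (chr16:36277148-36285371, plus strand). These 2 bins are the run that rose with SETDB1 loss. The third bin holds Cstdc3, Cstdc6 and Cstdc5, and the fourth Stfa2 and Stfa3, together with an end of Casr, the calcium-sensing receptor gene. The left flank is 6 bins from Sema5b, a semaphorin gene, to Kpna1, an importin gene, and Ccdc58, and includes Parp14, Parp9 and Dtx3l, which act in ADP-ribosylation and ubiquitination. The right flank is 5 bins from Casr and Cd86, a T-cell co-stimulatory ligand, to Golgb1, Hcls1 and Fbxo40.

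The stefin A bins hold much duplicated sequence. Stretches that match another place in the window at 90% identity or more over at least 500 bp cover 29.5%, 38.8%, 47.3% and 16.5% of the 4 bins, against at most 0.624% of any flank bin. The 250 RefSeq bases before each start (GRCm38.p6, the assembly behind mm10) are printed here 5′ to 3′ on the gene's strand because those of the 3 members resemble each other. Capitals mark ACTCAGCATTTCC, the longest word that the 3 members share.
Csta1, chr16:36131190-36131439, minus strand: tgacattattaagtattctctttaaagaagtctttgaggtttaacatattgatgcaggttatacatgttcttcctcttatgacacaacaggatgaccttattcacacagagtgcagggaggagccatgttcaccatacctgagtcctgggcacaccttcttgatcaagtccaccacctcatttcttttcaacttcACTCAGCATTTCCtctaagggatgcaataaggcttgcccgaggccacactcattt
Stfa2l1, chr16:36156561-36156810, plus strand: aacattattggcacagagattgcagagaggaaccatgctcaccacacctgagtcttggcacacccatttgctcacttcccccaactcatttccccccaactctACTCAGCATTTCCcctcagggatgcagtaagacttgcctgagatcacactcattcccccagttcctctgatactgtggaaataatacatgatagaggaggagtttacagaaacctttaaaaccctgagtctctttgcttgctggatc
Stfa1, chr16:36276898-36277147, plus strand: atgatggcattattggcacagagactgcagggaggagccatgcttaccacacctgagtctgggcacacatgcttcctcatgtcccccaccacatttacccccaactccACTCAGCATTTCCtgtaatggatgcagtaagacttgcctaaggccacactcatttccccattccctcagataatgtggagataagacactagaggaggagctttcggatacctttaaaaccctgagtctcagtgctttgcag

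Searched on both strands, the word occurs in 8 of the 10 stefin A genes with a promoter entry (Csta1, Csta3, Cstdc3, Cstdc5, Stfa1, Stfa2, Stfa2l1 and Stfa3) and in 9 of 32851 promoters in all, or 0.0274%. It starts at −55 from the first base of Csta1, at −142 from that of Stfa1 and at −147 from that of Stfa2l1. Over aligned bases the promoter of Stfa1 matched that of Csta1 at 83.2% and that of Stfa2l1 at 82.4%, and Csta1 matched Stfa2l1 at 80.1%. The nearest relatives of the members lay in other bins. Csta1 in the first bin matched Cstdc5 in the third at 84.6%. Stfa1 in the second bin matched Cstdc5 in the third at 96.1%, and Stfa2l1 in the first matched Stfa2 in the fourth at 92.3%. Not all promoters of the cluster were alike, since that of Csta2 matched the others at 36.3% to 44.7% and that of Cstdc3 matched none above 47.8%. The match is a description of sequence and says nothing about which factor binds it.

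**Figure D1:**
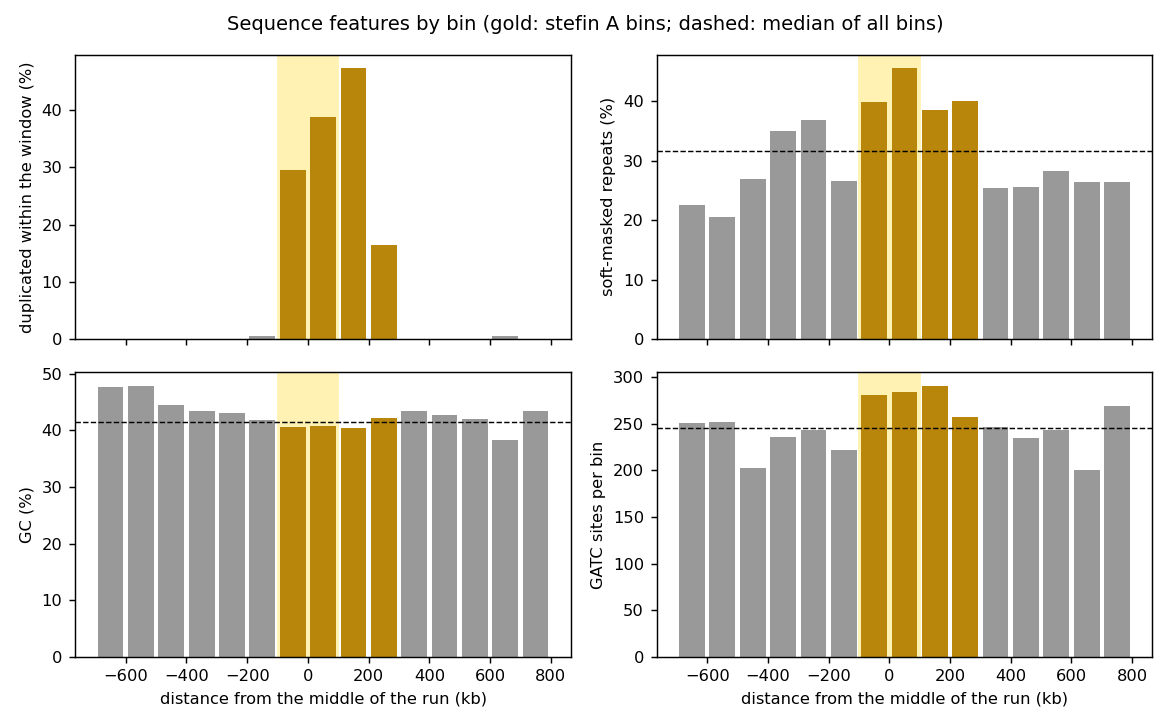
Sequence features of the 15 bins against distance from the middle of the run, in kb: bases duplicated within the window (%), soft-masked repeats (%), GC (%) and GATC sites, the cut sites of DpnII. The 4 stefin A bins (gold) hold 16.5% to 47.3% duplicated bases against at most 0.624% in the flanks, with GC near the median of all bins (dashed lines).

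In base composition the stefin A bins were ordinary, with a GC content of 40.5% to 42.2% against a median of 41.4% over all bins. They held 257 to 291 DpnII sites against a median of 246, and 38.5% to 45.6% of their bases were soft-masked repeats against a median of 31.7% and a range of 20.6% to 36.9% in the flanks. A mapping-quality filter drops reads that match several copies equally well, and its part in the scores of the 4 bins was not tested.

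Over the whole genome, Setdb1 WT + UNC differed most from the untreated library of its background. Against Setdb1 WT it had 841 bins that rose and 1108 that fell by at least 0.01. UNC0642 gave 181 and 224 in Setdb1 KO, 542 and 607 in Suv39h WT and 728 and 885 in Suv39h DKO. The change of the run with SETDB1 loss under UNC0642 is therefore also given with Setdb1 WT as the control.

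The cluster sat where a long A domain thins out. Left of it the score formed a plateau, with a left-flank mean of 0.0559 in Setdb1 WT against 0.0548 in Setdb1 WT + UNC, while Setdb1 KO was at 0.0538 and Setdb1 KO + UNC at 0.0557. It was 0.0628 in Suv39h WT against 0.0613 in Suv39h WT + UNC, while Suv39h DKO was at 0.0644 and Suv39h DKO + UNC at 0.0572. Within the stefin A bins the score dropped to a minimum of between −0.0158 (Suv39h DKO + UNC) and 0.00613 (Setdb1 KO), and it rose again towards the right flank, whose mean ran from 0.0186 in Setdb1 WT + UNC to 0.0328 in Suv39h WT + UNC. Positive bins followed one another without a gap over chr16:29500001-36200000 in all 8 libraries, a stretch of 6.7 Mb, so the bin of Csta1 and Stfa2l1 was in the A compartment throughout. The files appear to hold scores from which a chromosome mean of 0.00861 to 0.0112 had been subtracted, with a sign that they do not settle. This bin stayed positive in all 8 libraries with that mean added or subtracted alike. The far end of that stretch differed. It lay at 36200000 in all 4 Suv39h libraries, at 36300000 in Setdb1 WT, at 36400000 in Setdb1 WT + UNC and at 37100000 in the Setdb1 KO libraries with and without UNC0642. In the 2 knockout libraries no bin of the window was negative, and the A domain of 7.6 Mb ran through the stefin A genes into the right flank. In the other 2 libraries of the line a single bin interrupted it, that of Cstdc3 at −0.00431 in Setdb1 WT and that of Stfa2 at −0.000264 in Setdb1 WT + UNC, both close to 0. These interruptions depend on where 0 lies. With the implied mean added back, none of the 4 Setdb1 libraries had a bin of the window below 0, and with it subtracted all 4 had at least 1, the bin of Cstdc3 standing at −0.00248 in Setdb1 KO and, with UNC0642, at −0.00618.

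**Figure D2:**
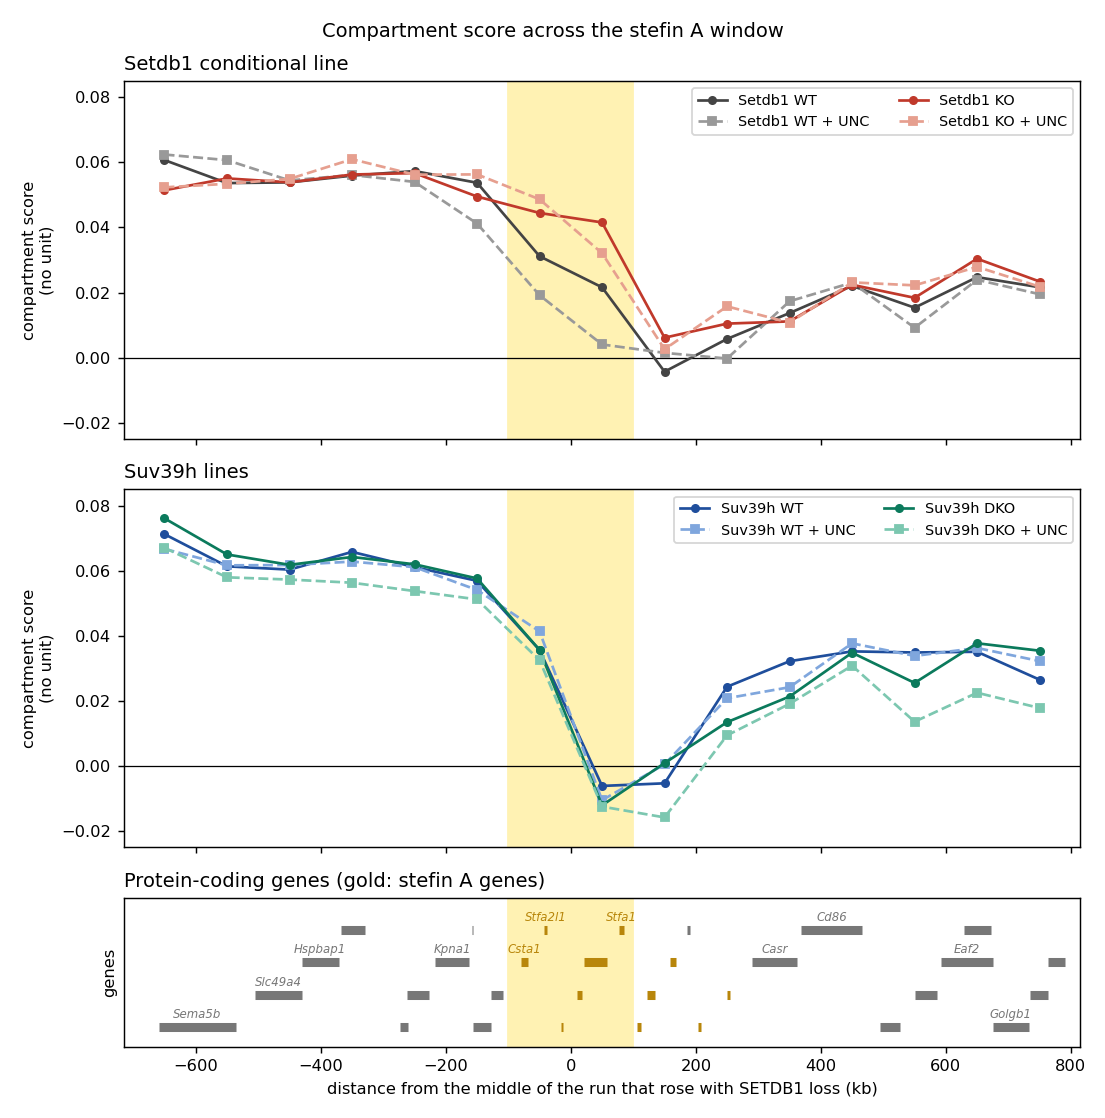
Compartment score (no unit) of each 100-kb bin against distance from the middle of the run, in kb, for the 4 Setdb1 libraries (top) and the 4 Suv39h libraries (middle), with protein-coding genes below (stefin A genes in gold). The shaded run lies on the slope from the left plateau to the minimum of the window. In the Setdb1 line the KO libraries are highest there, and in the second shaded bin all 4 Suv39h libraries are below 0.

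The first bin of the run, with Csta1, Stfa2l1 and Cstdc4, scored 0.0312 in Setdb1 WT against 0.0192 in Setdb1 WT + UNC, while Setdb1 KO was at 0.0445 and Setdb1 KO + UNC at 0.0487. In the Suv39h lines it scored 0.0356 in Suv39h WT against 0.0413 in Suv39h WT + UNC, while Suv39h DKO was at 0.0356 and Suv39h DKO + UNC at 0.0325. Here the KO libraries were the highest of the 8 and Setdb1 WT + UNC the lowest, and the Suv39h libraries lay between them.

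The second bin, with Csta3, Csta2 and Stfa1, behaved differently between the lines. It scored 0.0216 in Setdb1 WT against 0.00405 in Setdb1 WT + UNC, while Setdb1 KO was at 0.0416 and Setdb1 KO + UNC at 0.0321. It scored −0.00614 in Suv39h WT against −0.0105 in Suv39h WT + UNC, while Suv39h DKO was at −0.0121 and Suv39h DKO + UNC at −0.0125. The lines did not overlap and lay on opposite sides of 0, so by the deposited sign Stfa1 was in the A compartment in the Setdb1 line and in the B compartment in the Suv39h lines. With the implied chromosome mean added back, 4 Setdb1 libraries and 1 Suv39h library (Suv39h WT, 0.00396) were positive. With it subtracted, 3 Setdb1 libraries and 0 Suv39h libraries were, Setdb1 WT + UNC being at −0.00506. It was the sole bin of the 15 with all Setdb1 libraries positive and all Suv39h libraries negative, a pattern of 35 bins (0.146%) in all. All 4 Setdb1 libraries took part in choosing this bin, the KO libraries by high and the WT libraries by low scores, so the pattern is a description. Among the WT libraries alone, with 2 per line, the Suv39h mean minus the Setdb1 mean was −0.0212, and between the untreated WT libraries the bin differed by −0.0278. The Setdb1 and Suv39h libraries come from different cell lines.

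Taking both bins, the run averaged 0.0264 in Setdb1 WT against 0.0116 in Setdb1 WT + UNC, while Setdb1 KO was at 0.0430 and Setdb1 KO + UNC at 0.0404. Among all bins this was the 78.0th, 65.6th, 93.0th and 90.8th percentile of each library. The run averaged 0.0147 in Suv39h WT against 0.0154 in Suv39h WT + UNC, while Suv39h DKO was at 0.0118 and Suv39h DKO + UNC at 0.009999. From the highest to the lowest the order was Setdb1 KO, Setdb1 KO + UNC, Setdb1 WT, Suv39h WT + UNC, Suv39h WT, Suv39h DKO, Setdb1 WT + UNC and Suv39h DKO + UNC. The 2 widest gaps in this order, 0.0140 below Setdb1 KO + UNC and 0.0110 below Setdb1 WT, involve the libraries that chose the run and are given as values. The other neighbours differed by 0.000147 to 0.00298. The residual SD of the run after fitting the 4 backgrounds and a common UNC0642 term was 0.00488, larger than these gaps. It rests on Setdb1 WT + UNC, without which it was 0.00121. The gaps from Setdb1 KO to Setdb1 KO + UNC (0.00263), from Suv39h WT to Suv39h DKO (0.00298) and from Setdb1 WT + UNC to Suv39h DKO + UNC (0.00162) are larger than this smaller value.

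**Figure D3:**
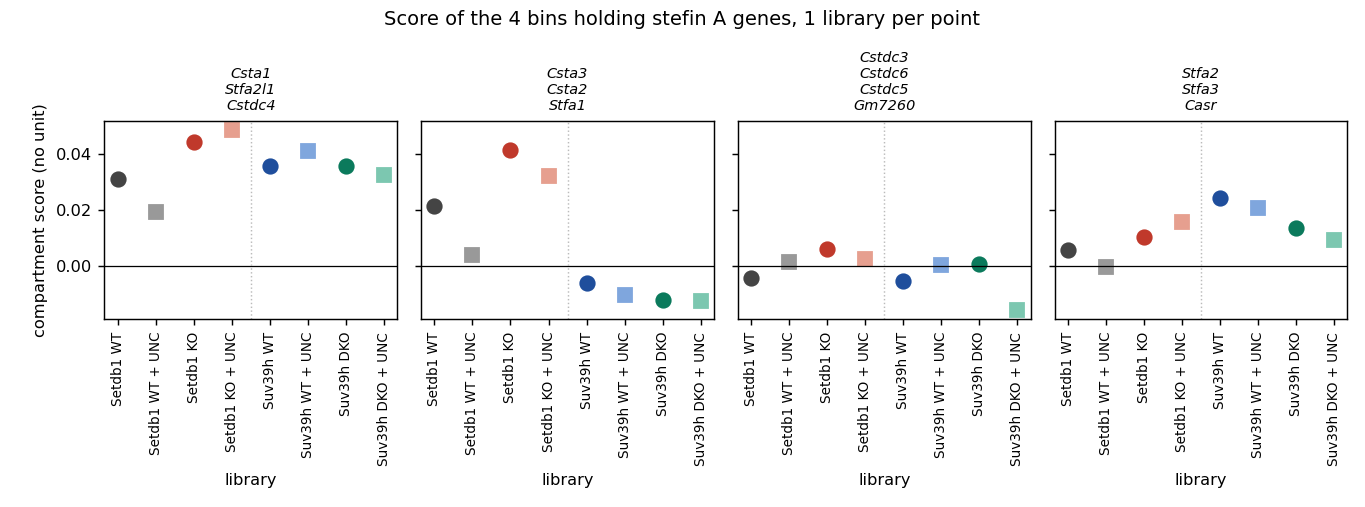
Compartment score (no unit) of the 4 bins that hold stefin A genes, 1 panel per bin and 1 point per library (circles without and squares with UNC0642, dotted line between the Setdb1 and Suv39h libraries). The KO libraries are the 2 highest points in the first 3 panels, and in the second panel the Setdb1 libraries lie between 0.00405 and 0.0416 while the Suv39h libraries lie between −0.0125 and −0.00614.

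Both bins of the run scored higher after SETDB1 loss, with and without UNC0642. The first bin was higher by 0.0133 without and by 0.0295 with UNC0642, and the second by 0.0199 and 0.0281. The mean over the run was higher by 0.0166 and 0.0288. Where Setdb1 WT stood in for Setdb1 WT + UNC as the control of Setdb1 KO + UNC, the run was higher by 0.0140, its first bin by 0.0175 and its second by 0.0105. The direction without UNC0642 assumes that the implied chromosome mean has 1 sign in both libraries, since with opposite signs the change came to −0.000838, and in a 500-kb bin it came to 0.00883. These contrasts chose the run, so its size is given for scale alone: it ranked 1 of 23920 pairs of neighbouring bins without UNC0642 and 46 with it.

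The run was defined as the neighbouring bins of the window that went up by at least 0.01 both without and with UNC0642. Its 2 bins therefore pass this limit by definition, and their number is not a result. No other bin of the window passed it, and 136 bins (0.567%) did in all. Just outside this limit, the bin of Wdr5b and Ccdc58 on the left changed by −0.00423 without and 0.0151 with UNC0642. The bin of Cstdc3 changed by 0.0104 and 0.00114, and that of Stfa2 and Stfa3 by 0.00471 and 0.0160, so each of the 3 passed in 1 of the comparisons. Taken singly, the comparison without UNC0642 had 3 rising bins in the window (1.4% of all bins) and the one with UNC0642 had 5 (7.16%). The fifth was the bin of Slc15a2 in the right flank, at 0.0130. In the window 0 bins fell by 0.01 without UNC0642 (0.88% of all bins) and 1 fell with it (5.79%), that of Sema5b at −0.0101. On average the flanks changed by −0.00206 and 0.000877 on the left and by 0.00165 and 0.00256 on the right. Relative to the other 13 bins the run stood at −0.00701 in Setdb1 WT against −0.0209 in Setdb1 WT + UNC, and at 0.00876 in Setdb1 KO against 0.00512 in Setdb1 KO + UNC. The run thus lay below the mean of the other 13 bins in both controls and above it in both knockouts. That mean mixes the left plateau with lower bins. The run stayed below the left flank in both knockouts, at 0.0430 against 0.0538 in Setdb1 KO and 0.0404 against 0.0557 in Setdb1 KO + UNC. These contrasts use the scores that chose the run and are a description. Both KO libraries were above the other 6 in the bins of Csta1, Csta3 and Cstdc3 and in none of the other 12 bins of the window, a pattern of 8.94% of all bins. The bins of Csta1 and Csta3 are the run, chosen in part for high KO scores, so they cannot be counted against that share. Outside the run the bin of Cstdc3 alone had the pattern.

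**Figure D4:**
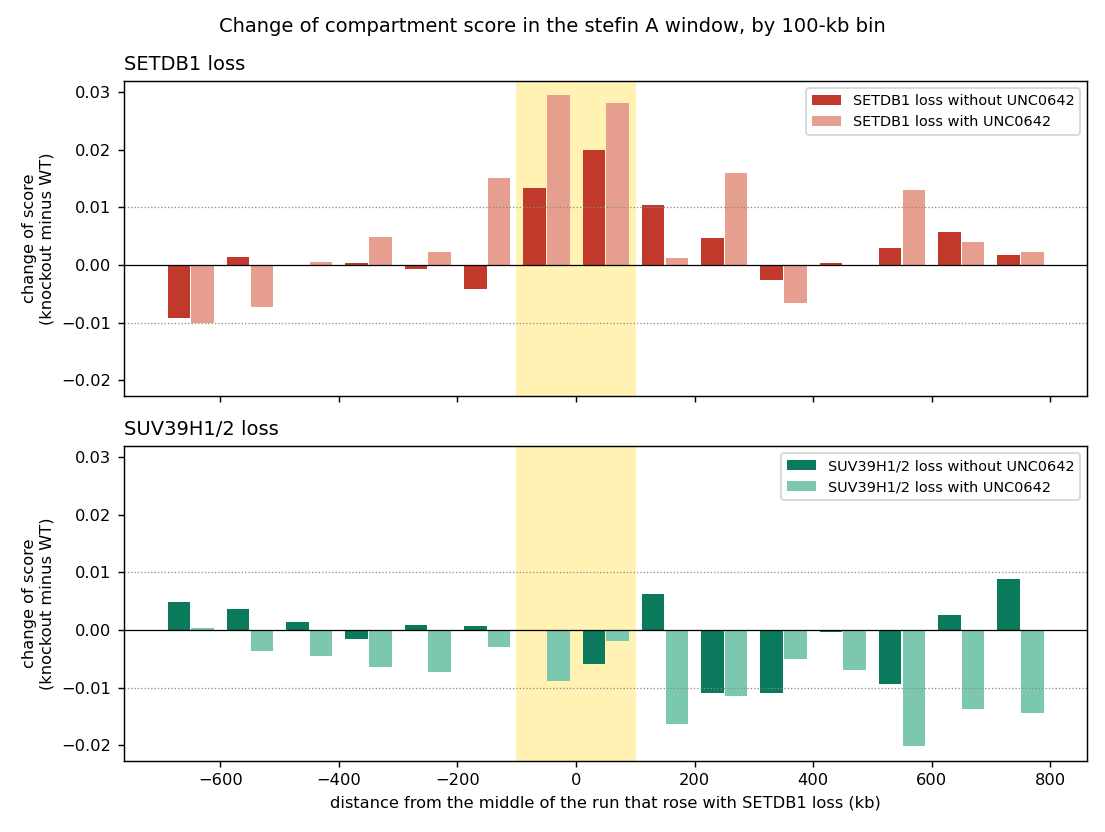
Change of compartment score (knockout minus WT, no unit) in each 100-kb bin against distance from the middle of the run, in kb, for SETDB1 loss (top) and SUV39H1/2 loss (bottom), dark without and light with UNC0642. Dotted lines mark 0.01 and −0.01. The shaded bins are higher by 0.0133 to 0.0295 with SETDB1 loss, and with SUV39H1/2 loss its bins lie between −0.00887 and 7.59e-06.

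The flank means changed by less than 0.003 with SETDB1 loss, and the change of the run was also expressed as a move of the edge of the left plateau. The edge was taken as the position where the score, interpolated between bin centres, fell to 50% of the left-flank mean, a measure chosen after the values were seen. It lay 83.8 kb from the start of the run in Setdb1 WT and 12.7 kb in Setdb1 WT + UNC, while Setdb1 KO was at 191 kb and Setdb1 KO + UNC at 164 kb. In the Suv39h lines it lay at 60.2 kb in Suv39h WT against 70.6 kb in Suv39h WT + UNC, while Suv39h DKO was at 57.2 kb and Suv39h DKO + UNC at 58.6 kb. With SETDB1 loss it was thus 108 kb further into the cluster without UNC0642 and 152 kb with it, or 80.6 kb where Setdb1 KO + UNC was set against Setdb1 WT. As deposited, it lay in the bin of Csta1 and Stfa2l1 in both controls and in the bin of Stfa1 in both knockouts. With the implied chromosome mean added back or subtracted, the shift without UNC0642 was 73.4 or 134 kb and that with UNC0642 146 or 157 kb. With opposite signs in the 2 libraries of a pair it ran from 49.1 to 159 kb without and from 116 to 187 kb with UNC0642. SUV39H1/2 loss changed the edge by −3.004 kb without and −12.0 kb with UNC0642, the second in a pair whose left-flank mean, which sets the level, itself changed by −0.00409. With the implied mean added back or subtracted, the first was −5.38 or −1.75 kb and the second −9.21 or −20.3 kb. With opposite signs they ran from −27.8 to 20.6 kb and from −39.7 to 10.2 kb, so their direction is not settled. A bin spans 100 kb, and every shift below that, the SETDB1 values of 49.1, 73.4 and 80.6 kb included, is finer than the resolution of the files.

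**Figure D5:**
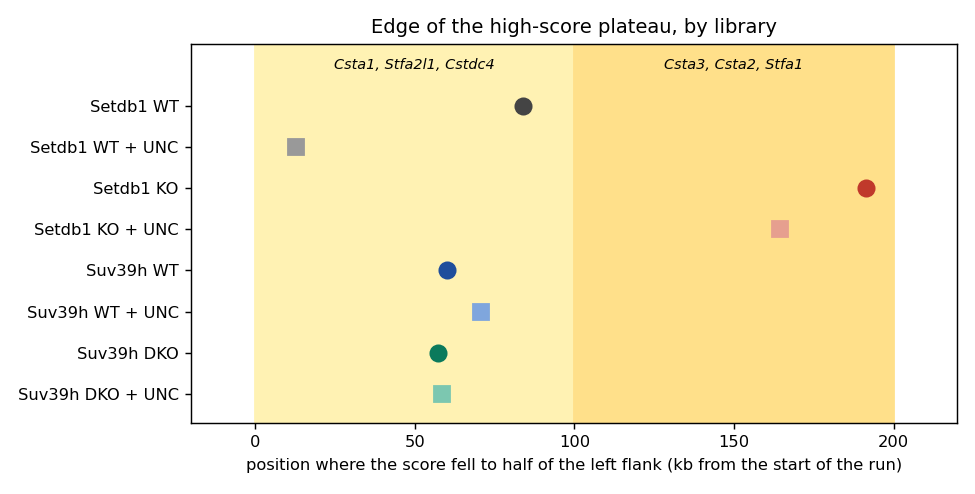
Position of the edge of the left plateau in each library, in kb from the start of the run (circles without and squares with UNC0642), over the 2 bins of the run and their stefin A genes. The edge lies at 12.7 to 83.8 kb in the 6 libraries with SETDB1, and at 164 and 191 kb in the 2 without.

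In the deposited scores the run did not score higher after SUV39H1/2 loss. The bin of Csta1 and Stfa2l1 changed by 7.59e-06 without and by −0.00887 with UNC0642, and the bin of Stfa1 by −0.00597 and −0.00197. The run as a whole changed by −0.00298 and −0.00542, with ranks of 18585 and 21580 of 23920 from the highest. With opposite signs of the implied chromosome mean in 2 libraries these changes could reach 0.0164 and 0.0159, and against the rest of the window, which itself fell, the second was 0.00324. limma was fitted to all bins with the background as a block. In the fit of all 8 libraries the error term also holds the Setdb1 libraries that chose the run, so the fit of the 4 Suv39h libraries alone is given as well. The first put the difference between Suv39h DKO and Suv39h WT over 2 libraries each at −0.00443 ± 0.00402 (SE, adjusted p = 0.7646, 95% interval −0.0134 to 0.00451) for the bin of Csta1 and Stfa2l1. From the Suv39h libraries alone the SE was 0.00323 (limma adjusted p = 0.6997, 95% interval −0.0118 to 0.00294). For the bin of Stfa1 the difference was −0.00397 ± 0.00382 (SE, limma adjusted p = 0.7793, 95% interval −0.0125 to 0.00452), and alone the SE was 0.00293 (adjusted p = 0.7023, 95% interval −0.0107 to 0.00272). The intervals rest on 1 clone of each genotype, and the difference between the effects of SETDB1 loss and of SUV39H1/2 loss was not tested, because the first chose the bins.

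The lowest p-values for SUV39H1/2 loss lay to the right of the run, in bins that scored lower in Suv39h DKO. Limma called 0 of the 15 bins at an adjusted p under 0.05, with the lowest adjusted p at 0.3569, as it called 0 of 23972 (0%) in all. At an unadjusted p under 0.05 there were 3 of the 15, all lower in Suv39h DKO, against 9.6% of all bins. They were the bin of Stfa2 and Stfa3 (−0.0111 ± 0.00321 SE), that of Casr and Cd86 (−0.00798 ± 0.00316) and that of Ildr1, Slc15a2 and Eaf2 (−0.0148 ± 0.00364). By the size of the change, falls of at least 0.01 were seen in 2 bins without UNC0642 (3.73% of all bins) and in 5 with it (3.86%), and 0 bins of the window rose that far (3.64% and 2.98% of all bins). In Suv39h DKO + UNC the right flank averaged 0.0208, against 0.0310 in Suv39h DKO and 0.0328 in both Suv39h WT libraries.

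With UNC0642 in Setdb1 WT the run changed by −0.0148, the bin of Csta1 by −0.0120, that of Stfa1 by −0.0176 and the edge by −71.2 kb. The low score of Setdb1 WT + UNC is also the control of the SETDB1 contrast with UNC0642 that helped to choose the run. The change came to −0.00744 over all stefin A bins, −0.00846 in a 500-kb bin and 0.00319 with opposite signs of the implied mean. Falls of at least 0.01 were seen in 4.62% of all bins in this pair. In the other pairs the run changed by −0.00263 in Setdb1 KO, 0.000669 in Suv39h WT and −0.00177 in Suv39h DKO. In Setdb1 KO this mean holds a change of −0.00945 in the bin of Stfa1 and of 0.00419 in that of Csta1. In the Suv39h lines limma gave 0.00128 ± 0.00411 (SE, adjusted p = 0.9879) for the bin of Csta1 and −0.00238 ± 0.00313 (adjusted p = 0.9591) for that of Stfa1 in the fit of all 8 libraries. The error term of that fit also holds the Setdb1 libraries that chose the run. From the Suv39h libraries alone the SE was 0.00323 (limma adjusted p = 0.9729) and 0.00293 (adjusted p = 0.9305). Over the window limma called 0 of 15 bins at an adjusted p under 0.05, as it called 0 of 23972 (0%) in all. At an unadjusted p under 0.05 there was 1, that of Sema5b (5.63% of all bins).

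The slope through the cluster also differed between the libraries of the lines. The Setdb1 scores of both bins took part in choosing the run, so the slope is a description and was not tested. From the bin of Csta1 to that of Stfa1 the score changed by −0.00955 in Setdb1 WT against −0.0151 in Setdb1 WT + UNC, while Setdb1 KO was at −0.00291 and Setdb1 KO + UNC at −0.0165. The change was −0.0418 in Suv39h WT against −0.0519 in Suv39h WT + UNC, while Suv39h DKO was at −0.0477 and Suv39h DKO + UNC at −0.04497. All 4 Suv39h drops were larger than any in the Setdb1 line. Among the 23920 pairs of neighbouring bins in each library, at most 0.259% dropped as steeply in a Suv39h library, and between 4.30% and 32.3% in a Setdb1 library. The second bin is the sole one in the window in which the Setdb1 libraries were the higher without overlap (6.5% of all bins). The Suv39h libraries were the higher without overlap in 4 bins, all in the flanks (6.57% of all bins).

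Stfa2 and Stfa3 at the far end of the cluster had another order of libraries. Their bin scored 0.00575 in Setdb1 WT against −0.000264 in Setdb1 WT + UNC, while Setdb1 KO was at 0.0105 and Setdb1 KO + UNC at 0.0158. It scored 0.0243 in Suv39h WT against 0.0208 in Suv39h WT + UNC, while Suv39h DKO was at 0.0135 and Suv39h DKO + UNC at 0.00941. The 2 Suv39h WT libraries were the highest of the 8, although the lines overlapped through the DKO libraries. The bin of Cstdc3, Cstdc6 and Cstdc5 stayed near 0 in 7 libraries, from −0.00533 to 0.00613, and was lowest in Suv39h DKO + UNC at −0.0158.

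Other genes of the cystatin superfamily and the papain-like cathepsins lie outside the window and are given for comparison. Of 16 listed cystatin genes outside the cluster 15 were found, in 9 bins, and all 18 papain-like cathepsins were found, in 15 bins. In both lists 0 genes rose and 0 fell by at least 0.01 in both SETDB1 pairs, against 0.567% and 0.129% of all bins, shares at which lists of this size would hold few or none. In the pair with UNC0642 alone, Ctsl changed by 0.0249 and Fetub and Hrg, which share a bin, by 0.0120. The median change with SETDB1 loss was 0.000700 for cystatins and −0.000464 for cathepsins without UNC0642 (−0.000122 over all bins), and 0.00104 and 0.000458 with it (−0.000425 over all bins). With SUV39H1/2 loss limma called 0 genes of either list, with 0 cystatins and 2 cathepsins (Ctsj and Ctsq, which share a bin) at an unadjusted p under 0.05, against 0% and 9.6% of all bins. Without UNC0642, SUV39H1/2 loss changed Ctsl by −0.0160, Ctss by −0.0108 and the shared bin of Cts6 and Cts8 by 0.0115. Cstb, the stefin B gene on chromosome 10 and closest relative of the cluster outside it, scored between 0.0415 and 0.0494 in all 8 libraries and changed by −0.00478 without and 0.00292 with UNC0642 on SETDB1 loss.

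The pattern of the run over the 8 libraries was seen in other bins. Among 2026 bins over 3 Mb away or on another chromosome, and with an SD over libraries of at least 50% of the run's 0.0134, the most alike held Dcun1d5 and Mmp13 on chromosome 9 (Pearson r = 0.987 over 8 libraries). Next came Akr1c18 and Akr1c13 on chromosome 13 (0.984), Klhl9 with the Ifnz gene group on chromosome 4 (0.984), Mroh2b and C7 on chromosome 15 (0.982) and Chil6 on chromosome 3 (0.982). In each, the KO libraries were the 2 highest, an order that follows from choosing bins by their r with the run. The bin of Mmp13 scored 0.0137 in Setdb1 KO and, with UNC0642, 0.0172, whereas Setdb1 WT was at 0.00282 and Setdb1 WT + UNC at −0.0144. In the Suv39h lines it lay between −0.0142 and −0.00832. The points share libraries and the bins were taken for the highest r, so the r and the order of libraries are a description.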

How the data were processed

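The authors cut fixed chromatin with DpnII, aligned read pairs to mm10 in the 4D Nucleome pipeline, required a mapping quality above 10, built matrices with Juicer Tools and took compartment scores in 100-kb bins of the 19 autosomes from the first eigenvector of the KR-normalised intrachromosomal map. The deposited value is this score. The files hold scores and no read counts. Read totals that the study lists per repeat were not used here, because the repeat behind each file is not given in the sources used here, so no error is derived from depth. Chromosome 16 averages 0 in each library, and the sum of squares implies a subtracted mean of 0.00861 to 0.0112, so a shift of the whole chromosome cannot appear.

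Of 24005 bins, the 23972 present in all 8 libraries were used unscaled. The members and gene lists were chosen with earlier results of these data known. limma 3.58.1 (R 4.3.3) was fitted to all bins with the background as a block and Benjamini-Hochberg adjustment over all bins. For SUV39H1/2 loss the fit had a common UNC0642 term. For UNC0642 in the Suv39h lines the fit of all 8 libraries had separate UNC0642 terms for the Setdb1 and Suv39h libraries. limma was also run on simulated scores, with an outcome not reported here. With 1 file per group, its p-values measure the spread between these libraries alone. Genes, promoters and sequence are from RefSeq GRCm38.p6. Duplicated sequence was found with BLAST+ 2.17.0 and promoters were aligned with MAFFT 7.526. Every protein-coding gene of the window was named by its bin, cystatins and cathepsins by the bin of their start. The genes most alike were those of the 5 bins with the highest Pearson r with the run. The test of a line by UNC0642 term uses the Setdb1 libraries that chose the run and is not reported.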

Additional observations from a re-analysis of the deposited data

How the results depend on the processing

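The 8 changes of the run were recomputed under 83 alternatives in all, and 59 moved a change by less than the residual SD of 0.00488, among them each root-mean-square, quantile, GC and common-mean setting. That SD rests on Setdb1 WT + UNC, and within the 0.00121 found without it, chosen after seeing the data, there were 47. Within the larger SD small changes could still grow or turn. SUV39H1/2 loss with UNC0642 went from −0.00542 to −0.00964 over all stefin A bins. UNC0642 in Suv39h DKO went from −0.00177 to −0.00607 there and to 0.000192 with the implied mean added. UNC0642 in Setdb1 KO went from −0.00263 to 0.000664 in a 500-kb bin. SETDB1 loss without UNC0642 came to 0.00883 in a 500-kb bin. SETDB1 loss with UNC0642 came to 0.0187 over all stefin A bins, 0.0180 in a 500-kb bin and 0.0140 without Setdb1 WT + UNC, an alternative chosen after seeing the data. UNC0642 in Setdb1 WT came to −0.00744 over all stefin A bins and −0.00846 in a 500-kb bin. Measured against the rest of the window, SUV39H1/2 loss with UNC0642 came to 0.00324 and UNC0642 in Suv39h DKO to 0.00707, since their flanks fell. If the sign of the implied chromosome mean may differ between 2 libraries, which the files do not settle, SETDB1 loss ranged from −0.000838 to 0.0341 without and from 0.0109 to 0.0467 with UNC0642. SUV39H1/2 loss ranged from −0.0223 to 0.0164 without and from −0.0267 to 0.0159 with it. UNC0642 ranged from −0.0327 to 0.00319 in Setdb1 WT, from −0.0200 to 0.0148 in Setdb1 KO, from −0.0195 to 0.0208 in Suv39h WT and from −0.0223 to 0.0187 in Suv39h DKO. The 2 bins rising in both SETDB1 pairs remained 2 under each scaling and at a limit of 0.005, and were 0 at 0.02. Limma called 0 bins of the window in all 8 alternatives to each of its tests in the Suv39h lines, with the lowest adjusted p for SUV39H1/2 loss between 0.285 and 0.386. The limma fits pair libraries with and without UNC0642 through the background, and no pairing by replicate number could be made because each group holds 1 file.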
